A study of Homo sapiens with 6 samples.

Results

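The genes described here are 10 genes of the NF-kB system, the subunits NFKB1, NFKB2, RELA, RELB and REL and the feedback genes NFKBIA, NFKBIB, NFKBIE, TNFAIP3 and BIRC3. They were matched by symbol to the Ensembl identifiers of 6 RNA-seq libraries, and each of the 10 symbols matched 1 of the 63241 genes counted. The libraries came from cultured MDA-MB-231 cells, an established line of human triple-negative breast cancer whose genotype the labels give as WT. In the NCD group, 3 libraries (NCD replicates 1 to 3), the cells were treated for 24 h with 5 μM NCD, which is nitidine chloride, a plant alkaloid. In the DMSO group, also 3 libraries (DMSO replicates 1 to 3), they received the vehicle DMSO at 0.1% for the same time. The comparison asked which transcripts differed between treated and vehicle cells. Nothing in the labels says that the libraries of a group came from separate cultures, so the spread between them may be technical. The study used 1 cell line, and in bulk RNA less RNA per cell and fewer cells with that RNA cannot be told apart.

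NF-kB is a family of transcription factors that bind DNA as dimers. In resting cells IkB proteins hold the dimers in the cytoplasm. In the canonical pathway the IKK complex marks IkB proteins for destruction, and dimers such as RELA with p50, which is made from the NFKB1 precursor, enter the nucleus. In the non-canonical pathway the kinase NIK, encoded by MAP3K14, leads to the processing of the NFKB2 precursor p100 to p52, which pairs mainly with RELB. Several genes of the system are themselves NF-kB targets and feed back on it, and NF-kB activity is known to be raised in many triple-negative breast cancer lines.

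The members' own upstream sequences hold the motif that NF-kB dimers bind, and the stretches around it are shown because feedback by NF-kB on its own genes runs through such sites. RefSeq gave 13 windows upstream of annotated transcript starts for 8 members. In the 250 bases before each start, the NF-kB consensus decamer was searched on both strands. It begins with a run of G, continues with a purine, any base, A or T and pyrimidines, and ends with C. A match was found in 8 of the 13 windows, in 7 of the 8 members, and in 5.21% of all 35116 windows searched in the same way. RELA had no match in either of its windows. NFKB2 also had matches to the decamer at -78 to -69 and at -176 to -167 from their starts, which are not printed below. A match describes the sequence and is not evidence of binding, and some of the matches lie within exons that GENCODE 29 annotates for other transcripts. In the 30-base stretches below, written in the direction of the gene on GRCh38.p14, capitals mark the match, or both overlapping matches where they occur on both strands (the first NFKB2 stretch, NFKBIB and REL), and both separate matches in TNFAIP3.
NFKB1, chr4:102501300-102501329, plus strand: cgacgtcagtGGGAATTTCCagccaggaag
NFKB2, chr10:102394462-102394491, plus strand: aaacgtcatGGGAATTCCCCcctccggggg
NFKB2, chr10:102395674-102395703, plus strand: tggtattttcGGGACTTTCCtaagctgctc
REL, chr2:60881518-60881547, plus strand: gtcagccgcGGGAAATTCCCctcccgccag
NFKBIB, chr19:38899932-38899961, plus strand: ggcgtggtgGGGAATTTCCCgcagggcgga
TNFAIP3, chr6:137867188-137867217, plus strand: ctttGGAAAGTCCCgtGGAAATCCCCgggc

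Longer stretches are given for NFKBIA and BIRC3, the members with a match whose expression was not higher with NCD, besides NFKB1. Both stretches end before the first exon that GENCODE 29 annotates. The NFKBIA stretch has 250 bases with 1 match at -81 to -72 from the start, and the BIRC3 stretch has 216 bases with matches at -199 to -190 and -135 to -126. All 3 matches lie on the strand opposite to the gene, so the capitals show the consensus in reverse.
NFKBIA, chr14:35404750-35404999, minus strand: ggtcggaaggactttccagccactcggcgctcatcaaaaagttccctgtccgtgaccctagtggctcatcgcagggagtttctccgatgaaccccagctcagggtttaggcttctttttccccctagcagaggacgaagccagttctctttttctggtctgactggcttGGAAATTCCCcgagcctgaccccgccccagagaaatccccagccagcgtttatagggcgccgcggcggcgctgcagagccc
BIRC3, chr11:102317234-102317449, plus strand: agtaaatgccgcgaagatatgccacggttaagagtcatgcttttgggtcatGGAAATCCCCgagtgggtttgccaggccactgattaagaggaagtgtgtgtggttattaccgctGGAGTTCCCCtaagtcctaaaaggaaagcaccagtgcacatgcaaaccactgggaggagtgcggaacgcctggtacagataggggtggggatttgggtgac

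**Figure D1:**
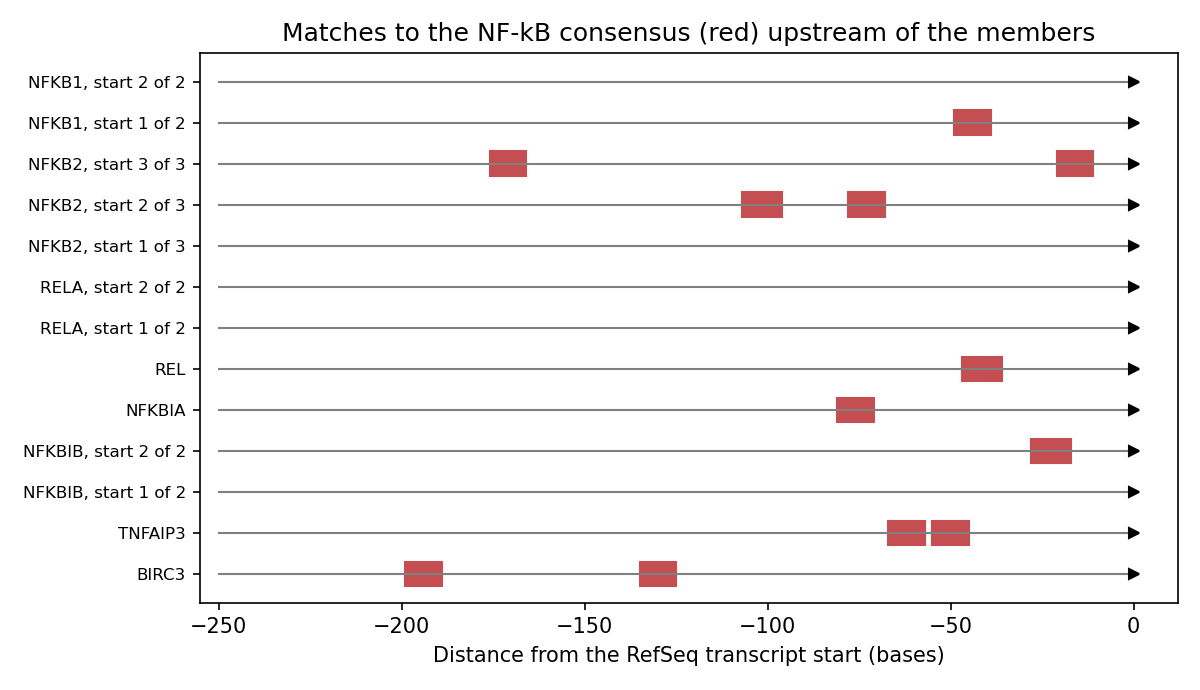
Each line is the 250 bases before a RefSeq transcript start of a member, with distance from the start in bases on the x axis, and red boxes are matches to the NF-kB consensus on either strand, overlapping matches joined (starts of a gene are numbered by coordinate). Matches stand in 8 of the 13 windows, RELA has none, and most lie within 110 bases of the start, with the exceptions in BIRC3 and NFKB2.

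The DMSO libraries held 18223594 to 19410833 counts and the NCD libraries 18232169 to 21629653. Counts are given as CPM, each library's counts rescaled to a common total with TMM (edgeR's trimmed mean of M values). The TMM factors were 0.9115 to 0.9494 for DMSO, and for NCD they were 1.059 to 1.092. For NCD replicates 2 and 3 a description line carries other line numbers, while the cell line field gives MDA-MB-231. NCD replicate 3 stood apart from the other NCD libraries, with a chi-square per degree of freedom of 14.4 and 12.9 against NCD replicates 1 and 2, which differed by 2.05. Among the DMSO libraries it was 15.4 between replicates 1 and 2, 7.88 between replicates 2 and 3 and 4.17 between replicates 1 and 3. Of 8 markers of the mesenchymal line 7 were above 1 CPM, and SPARC was at 0.3289 to 0.7865 CPM over the 6 libraries. These 7 were all lower with NCD, ZEB1 at 0.117 of its DMSO level, MSN at 0.283, CD44 at 0.284, AXL at 0.467, CAV1 at 0.561, LGALS1 at 0.738 and VIM at 0.863. The sum of all 8 went from 7087 to 7483 CPM with DMSO to 4303 to 4715 CPM with NCD. From gene start to gene end, ZEB1 spans 211.3 kb, MSN 153.6 kb and CD44 93.5 kb. AXL spans 42.6 kb, CAV1 36.4 kb, VIM 9.3 kb and LGALS1 4.2 kb. Tested genes of 153.1 to 2172.9 kb had a median log2 fold change of -2.09. It was -0.93 for those of 89.7 to 153.1 kb and 0.41 for those of 8.0 to 13.2 kb. The part of span in the marker values was not tested. Of 8 luminal markers, TFF1 and AGR2 were at 0 in all libraries, ESR1 had at most 7 counts and PGR at most 3. XBP1 rose from a mean of 99.8 to 221.7 CPM, ERBB2 from 37.2 to 61.0 CPM and FOXA1 from 0.172 to 1.68 CPM, while GATA3 had 6.12 and 7.31 CPM and did not pass. Their sum went from 135.9 to 152.6 CPM with DMSO to 276.2 to 300.6 CPM with NCD. Of the leukocyte markers, MS4A1, ITGAM and NKG7 were at 0 in all 6 libraries, and those other than CD68 summed to at most 1.005 CPM. The 7 endothelial and fibroblast markers summed to 5.376 to 6.358 CPM with DMSO and to 19.25 to 21.31 CPM with NCD. Of these, COL1A1 rose from a mean of 2.865 to 13.6 CPM and PDGFRB from 1.79 to 5.74 CPM. The others, among them the endothelial PECAM1, VWF and CDH5, stayed below 1 CPM in every library. The part of these shifts in the results below was not tested.

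All 10 members could be tested among 15295 genes, and all 10 passed at an adjusted p below 0.05 in edgeR's quasi-likelihood fit, where 69.3% of all tested genes did. With NCD, 7 members had higher and 3 lower expression, against 35.3% and 34.1% of all tested genes. At the study's fold threshold, an absolute log2 fold change above 1, 4 members were higher (NFKB2, RELB, NFKBIB and TNFAIP3) and NFKB1 was lower, against 13.5% and 17.5% of tested genes. The CPM of the groups did not overlap for any of the 10 members, which was so for 72.6% of tested genes, 37.2% higher and 35.3% lower. The median log2 fold change of the members was 0.74 and that of all tested genes 0.04. With library totals in place of TMM, every log2 fold change shifts upward, by a median of 0.20 over all genes, and NFKBIA and BIRC3 then are not called.

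**Figure D2:**
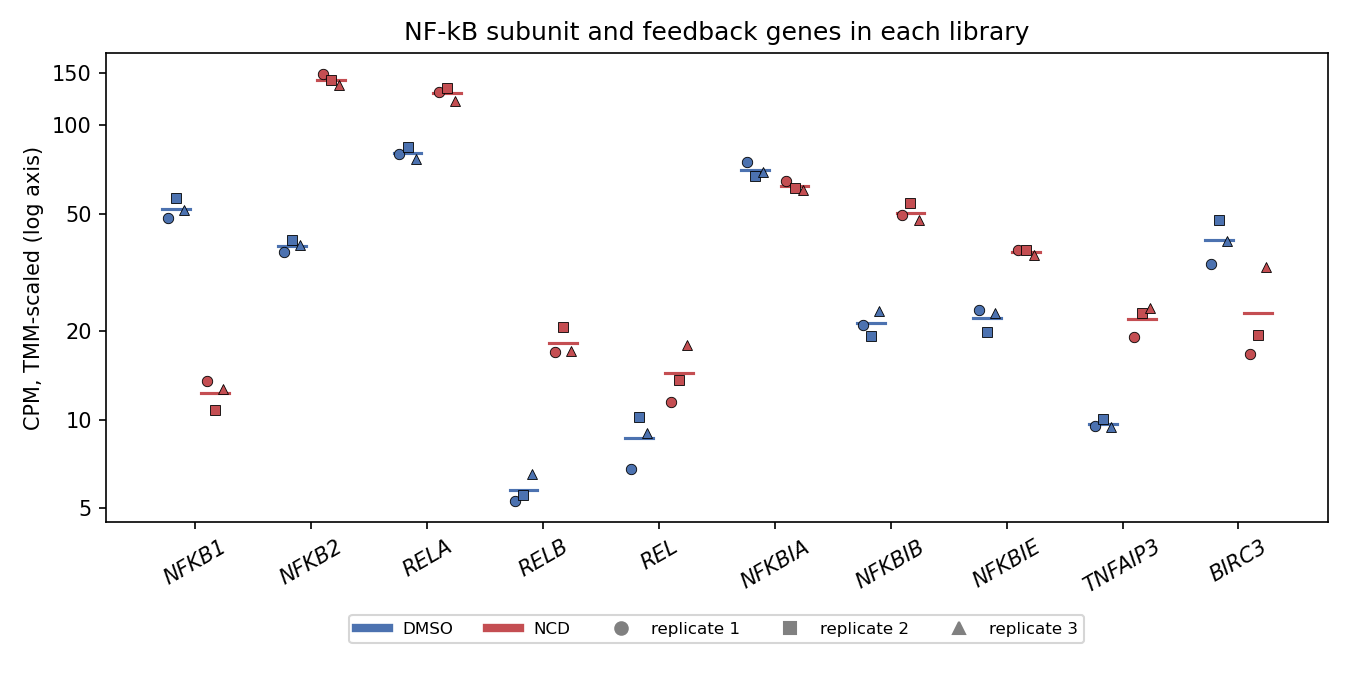
CPM of the 10 members in each of the 6 libraries on a log axis, with DMSO in blue, NCD in red, a symbol for each replicate number and a line at each group mean. NFKB1 and NFKB2 change places between the groups, the NFKBIA groups lie close together (60.19 to 75.21 CPM), and NCD replicate 3 is the highest NCD library for REL and BIRC3.

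The genes of the precursor subunits moved in opposite directions. NFKB1 (ENSG00000109320; GRCh38, GENCODE 29, chromosome 4, 102501329 to 102617302, plus strand) encodes p105, the precursor of p50. Its counts were 802, 1002 and 936 in the DMSO replicates 1 to 3 and 310, 208 and 272 in the NCD replicates 1 to 3. This was 48.3, 56.7 and 51.3 CPM with DMSO and 13.6, 10.8 and 12.7 CPM with NCD, so every NCD library lay far below every DMSO library. The log2 fold change was -2.08 (SE 0.11, adjusted p = 3.13e-07), which is 0.237 of the DMSO level. NFKB2 (ENSG00000077150; chromosome 10, 102394110 to 102402529, plus strand) encodes p100, the precursor of p52 and itself an inhibitor of RELB dimers. Its DMSO counts were 615, 718 and 717, and its NCD counts were 3404, 2756.28 and 2925. In CPM it rose from 37.1, 40.6 and 39.3 to 148.7, 142.6 and 136.4, with no NCD library near the DMSO values. Its log2 fold change of 1.87 (SE 0.07, adjusted p = 4.37e-08) was the largest rise among the members, and leaving out any 1 library gave values of 1.81 to 1.89.

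Of the subunits with a transactivation domain, RELB rose most. RELB (ENSG00000104856; chromosome 19, 45001430 to 45038198, plus strand), the partner of p52, had 5.30, 5.55 and 6.52 CPM with DMSO and 17.0, 20.7 and 17.1 CPM with NCD. Its lowest NCD library was above its highest DMSO library by more than the spread in either group, with a log2 fold change of 1.65 (SE 0.13, adjusted p = 4.25e-06). RELA (ENSG00000173039; chromosome 11, 65653596 to 65663094, minus strand), which encodes p65 and is the most abundant of the 5 subunit genes with DMSO, had 80.0, 84.1 and 76.6 CPM with DMSO and 130.0, 133.6 and 120.7 CPM with NCD. It rose 1.60-fold, a log2 fold change of 0.67 (SE 0.07, adjusted p = 1.7e-05), below the fold threshold. RELA-DT (65663086 to 65671716), a noncoding gene on the other strand that overlaps only its start, had at most 168 counts in a library. It also rose (log2 fold change 1.84), and the RELA counts were whole in all 6 libraries. Whether the counting used strand is not given in the sources used here.

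REL (ENSG00000162924; chromosome 2, 60881521 to 60931610, plus strand) encodes c-Rel, a subunit best known from lymphocytes, and was the least certain of the subunits. It had 6.81, 10.2 and 8.99 CPM with DMSO and 11.4, 13.7 and 18 CPM with NCD. The spread was wide in both groups, and the lowest NCD library lay close above the highest DMSO library. The log2 fold change was 0.73 (SE 0.20, adjusted p = 0.00892), and it was 0.51 without NCD replicate 3. With NCD replicate 1 as the only NCD library it was 0.43 (adjusted p = 0.126). The counts of REL were not whole in any of the 6 libraries, as RSEM gives where reads are divided between genes. An overlapping noncoding gene on the same strand, ENSG00000267520 (AC010733.2; 60925909 to 60931610), had from 144.24 to 516.55 counts, with its highest value also in NCD replicate 3. REL summed with this gene, an alternative chosen after seeing the data, gave a log2 fold change of 0.67 (adjusted p = 0.0244).

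The IkB genes did not move together. NFKBIA (ENSG00000100906; chromosome 14, 35401511 to 35404749, minus strand) encodes IkB-alpha, the rapidly resynthesised inhibitor of RELA dimers. It had 75.2, 67.0 and 69.4 CPM with DMSO and 64.4, 61.1 and 60.2 CPM with NCD, ranges that lie next to each other. The log2 fold change was -0.19 (SE 0.07, adjusted p = 0.0354), and with library totals as the scale it was 0.0098 (adjusted p = 0.892), so the direction rests on the scaling. The call was also lost without DMSO replicate 1 (adjusted p = 0.0822) or NCD replicate 2 (adjusted p = 0.113).
NFKBIB (ENSG00000104825; chromosome 19, 38899700 to 38908893, plus strand), which encodes IkB-beta, an inhibitor of slower turnover, had 21.0, 19.3 and 23.5 CPM with DMSO and 49.6, 54.3 and 47.5 CPM with NCD. Every NCD value was more than 2 times the highest DMSO value, and the log2 fold change was 1.25 (SE 0.09, adjusted p = 3.48e-06). SIRT2, a deacetylase gene on the other strand (38878555 to 38899862), overlaps only its start. SIRT2 had 375 to 436 counts with DMSO and 786 to 961 with NCD. The NFKBIB counts were not whole in 2 libraries, at 348.99 in DMSO replicate 1 and 1134.58 in NCD replicate 1. Strand bears on the NFKBIB value only through reads in that overlap. NFKBIE (ENSG00000146232; chromosome 6, 44258166 to 44265788, minus strand), which encodes IkB-epsilon, rose from 23.6, 19.9 and 23.0 CPM to 37.6, 37.7 and 36.3 CPM. Its NCD libraries were nearly alike, with an SD of 0.791 CPM, and its log2 fold change was 0.75 (SE 0.09, adjusted p = 5.25e-05), below the fold threshold.

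The remaining feedback genes also differed from each other. TNFAIP3 (ENSG00000118503; chromosome 6, 137867188 to 137883312, plus strand) encodes A20, a ubiquitin-editing enzyme that ends signalling at the TNF receptor complex. It rose from 9.52, 10.1 and 9.48 CPM with DMSO to 19.1, 23.1 and 23.9 CPM with NCD, with the DMSO libraries within 1 CPM of each other. The log2 fold change was 1.18 (SE 0.11, adjusted p = 1.45e-05). BIRC3 (ENSG00000023445; chromosome 11, 102317450 to 102339403, plus strand) encodes cIAP2, a ubiquitin ligase that limits NIK. It had 33.7, 47.6 and 40.5 CPM with DMSO and 16.7, 19.4 and 32.9 CPM with NCD, so NCD replicate 3 came within 1 CPM of DMSO replicate 1. The log2 fold change was -0.82 (SE 0.24, adjusted p = 0.0121), the widest error among the members. Without NCD replicate 3 it was -1.19, and with library totals it was -0.62 (adjusted p = 0.0549).

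**Figure D3:**
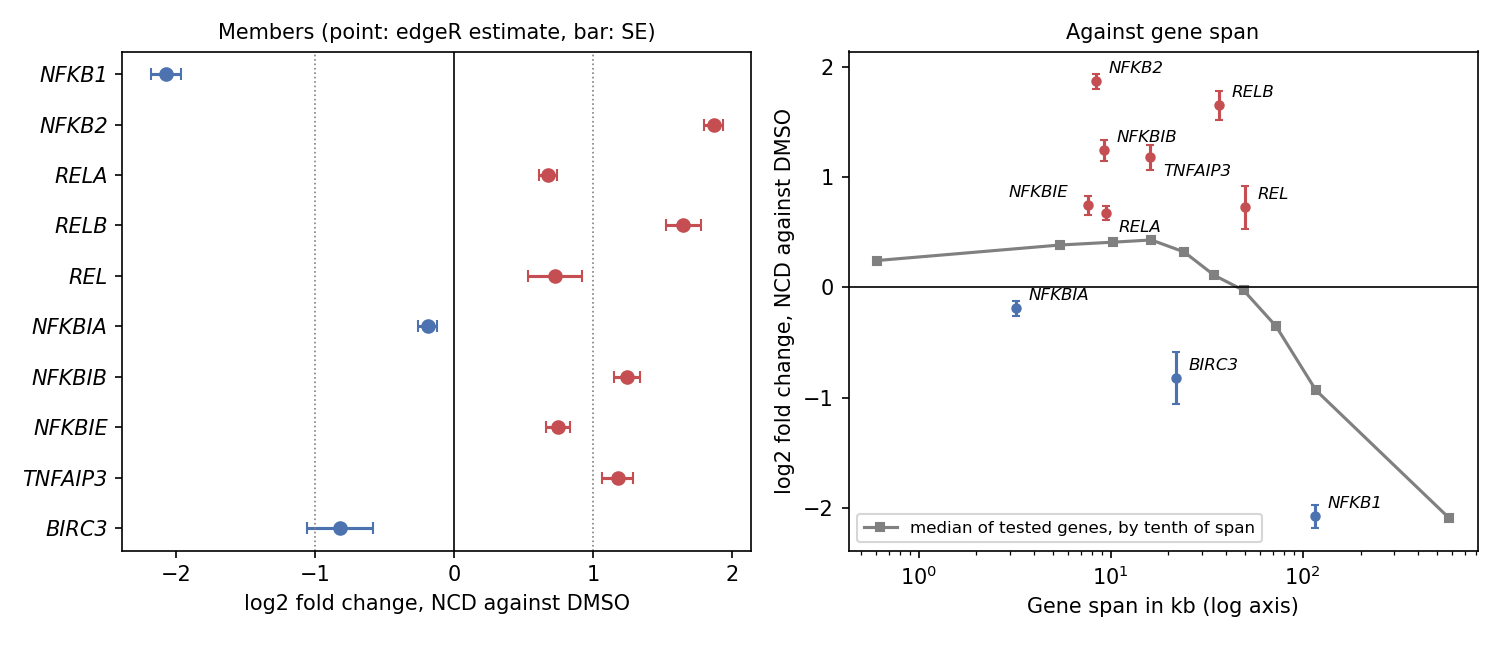
Left, log2 fold change (NCD against DMSO) of each member from the edgeR fit, with bars of 1 SE and dotted lines at -1 and 1; right, the same values against gene span in kb on a log axis, with the median of tested genes in each of 10 span classes in grey. NFKB2 and RELB stand at 1.87 and 1.65 and NFKB1 at -2.08, while NFKBIA at -0.19 takes the other sign with library totals as the scale.

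The fold changes of all genes vary with gene span, the distance from start to end of the gene, so the members' spans are given beside them. NFKB1 spans 116.0 kb and is by far the longest member. Tested genes of 89.7 to 153.1 kb had a median log2 fold change of -0.93, and NFKB1 at -2.08 was lower still. NFKB2 spans 8.4 kb, RELA 9.5 kb and NFKBIB 9.2 kb, in a range (8.0 to 13.2 kb) where the median of tested genes was 0.41. RELB (36.8 kb) and REL (50.1 kb) had positive fold changes in ranges where the medians were 0.11 and -0.03. NFKBIE (7.6 kb) at 0.75 and TNFAIP3 (16.1 kb) at 1.18 lay in ranges where the medians were 0.39 and 0.43. BIRC3 (22 kb) and NFKBIA (3.2 kb) were below the medians of their ranges, which were 0.32 and 0.24. The part of span in the members' values was not tested.

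The order of the members' levels changed with NCD. To compare genes, CPM was divided by the length of the gene's merged exons in kb (GENCODE 29). With DMSO, NFKBIA was highest at 29.7 ± 1.77 CPM per kb (SD, n = 3), followed by RELA at 14.7 ± 0.682. NFKBIB, NFKB2, NFKBIE and NFKB1 came next, from 9.15 down to 8.33 CPM per kb, and neighbours among these 4 overlapped in range. BIRC3 had 5.40 CPM per kb, TNFAIP3 and RELB 1.92 and 1.91 with overlapping ranges, and REL was lowest at 0.658. With NCD, NFKB2 was highest at 31.8 ± 1.38 CPM per kb, above NFKBIA at 26.1 ± 0.930. RELA at 23.4 and NFKBIB at 21.7 CPM per kb overlapped in range. NFKB1 dropped to the ninth place at 1.97 ± 0.228 CPM per kb, apart from BIRC3 above it and REL below it. Merged exons overstate the length of a gene with long alternative ends such as REL, so its place may be too low.

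Ratios of counts between genes of the same library do not depend on scaling. With DMSO there were 0.767, 0.717 and 0.766 NFKB2 counts for each NFKB1 count, and with NCD 10.96, 13.22 and 10.74. This is a 15.5-fold shift of the ratio, 3.95 on the log2 scale, and the groups lay far apart. NFKB1 spans 116.0 kb and NFKB2 8.4 kb, in ranges where the median log2 fold changes of tested genes were -0.93 and 0.41. The part of span in this ratio was not tested. RELB relative to RELA went from 0.0666, 0.0663 and 0.0854 to 0.131, 0.155 and 0.141, a 1.97-fold shift. NFKBIA relative to RELA, the inhibitor against its main target, went from 0.940, 0.797 and 0.906 to 0.495, 0.458 and 0.499. That is 0.550 of the DMSO ratio, with no overlap between the groups. NFKBIB, NFKBIE and TNFAIP3 each gained on NFKBIA, by 2.70-fold, 1.91-fold and 2.57-fold. REL relative to RELA differed by 0.05 on the log2 scale (SD 0.28 with DMSO and 0.39 with NCD), and BIRC3 relative to its paralog BIRC2 by 0.13 (SD 0.15 and 0.31), both within the spread between libraries. BIRC2, which encodes cIAP1, itself fell (log2 fold change -0.99, SE 0.11, adjusted p = 4.55e-05 in edgeR). For the 6 ratios without overlap an exact two-sided permutation test gave p = 0.1, the smallest that 3 against 3 libraries allow, and an adjusted p = 0.133 over the 8 ratios. The same exact test gave p = 0.9 for REL against RELA and p = 0.6 for BIRC3 against BIRC2.

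**Figure D4:**
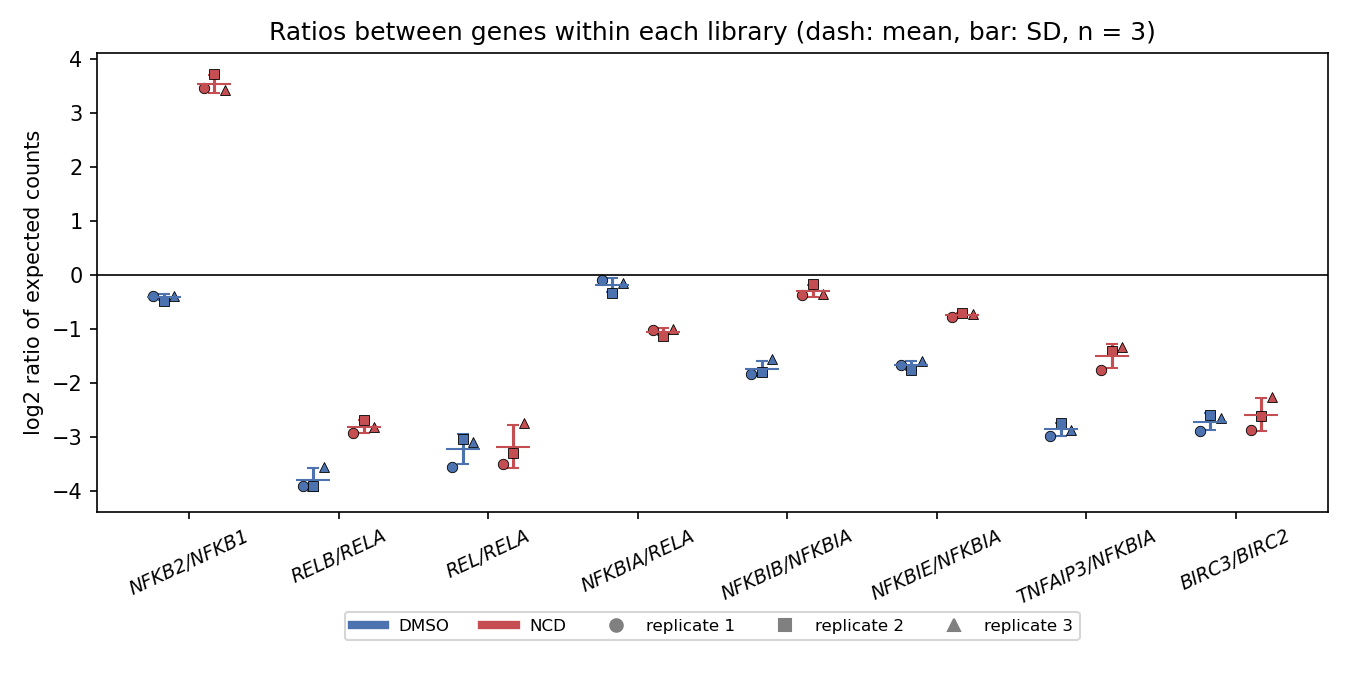
Log2 ratio of expected counts between pairs of genes in each of the 6 libraries, DMSO in blue and NCD in red, with the group mean as a dash and the SD (n = 3) as a bar. NFKB2 against NFKB1 lies near -0.42 with DMSO and near 3.53 with NCD, while REL against RELA and BIRC3 against BIRC2 overlap between the groups.

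The rest of the pathway was read from lists of receptors and ligands, of adaptors, kinases and ubiquitin ligases, of other inhibitors, and of NF-kB target genes. The counts of each list stand against 35.3% of all tested genes higher and 34.1% lower, 69.3% in either direction. Among 25 receptors and ligands 19 could be tested, of which 4 rose, 7 fell and 8 did not pass, with a median log2 fold change of -0.34, and the 7 that fell are near the share over all tested genes. TLR3, a receptor for double-stranded RNA, rose from 6.19 ± 1.34 to 15.6 ± 2.74 CPM (SD, n = 3). TLR6 fell from 18.2 ± 0.818 to 4.14 ± 0.818 CPM, and IL1B, the cytokine interleukin-1 beta, from 33.8 ± 0.901 to 15.2 ± 0.741 CPM. IL1RAP, the accessory chain of the interleukin-1 receptor, had a log2 fold change of -1.38 (SE 0.09). It spans 145.7 kb, in a range (89.7 to 153.1 kb) where the median of tested genes was -0.93, while TLR6 spans 33.1 kb and IL1B 7.2 kb. TLR3 spans 18.9 kb, in a range (13.2 to 20.1 kb) with a median of 0.43. TNF itself was not tested, with at most 5 counts in any library.

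All 30 adaptors, kinases and ubiquitin ligases were tested, and 10 rose, 9 fell and 11 did not pass, around a median of 0.04, in both directions near the shares of 35.3% and 34.1% over all tested genes. MYD88, the adaptor of most Toll-like receptors, rose from 32.7 ± 0.510 to 80.8 ± 4.25 CPM. TRAF1 (log2 fold change 1.29, SE 0.15) and the kinase gene MAP3K8 (1.06, SE 0.10) also rose. BTRC and FBXW11 encode the beta-TrCP proteins that mark phosphorylated IkB proteins and p100 for the proteasome, and both fell, BTRC from 37.5 ± 0.969 to 6.82 ± 1.39 CPM and FBXW11 from 103.1 ± 1.99 to 38.0 ± 1.66 CPM. TRAF3, which together with cIAP proteins keeps NIK low, fell from 54.8 ± 2.93 to 25.03 ± 0.628 CPM. MAP3K7, which encodes TAK1, the kinase upstream of IKK, had a log2 fold change of -1.48 (SE 0.10). BTRC spans 203.3 kb, in a range (153.1 to 2172.9 kb) where the median log2 fold change of tested genes was -2.09. FBXW11 (145.3 kb) and TRAF3 (134.0 kb) lie in a range (89.7 to 153.1 kb) with a median of -0.93. MAP3K7 spans 73.5 kb, in a range (58.9 to 89.7 kb) with a median of -0.35. The log2 fold changes of BTRC, FBXW11 and TRAF3 were -2.45, -1.44 and -1.13. The part of span in these rises and falls was not tested. MAP3K14, the gene of NIK, had 14.4 CPM with DMSO and 13.8 CPM with NCD (adjusted p = 0.644 in edgeR).

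Every one of the 17 other inhibitors and nuclear IkB genes passed the test, 10 higher and 7 lower, with a median of 0.35, where 69.3% of all tested genes passed. NKIRAS2, TNIP2, a partner of A20, and ZC3H12A, an RNase that degrades cytokine mRNAs, rose with log2 fold changes from 1.10 to 1.24. NKIRAS2 (14.3 kb) and TNIP2 (14.7 kb) lie in a range (13.2 to 20.1 kb) where the median of tested genes was 0.43. ZC3H12A spans 9.8 kb, in a range (8.0 to 13.2 kb) with a median of 0.41. COMMD1, which promotes the turnover of RELA, fell from 15.8 ± 1.65 to 1.74 ± 0.157 CPM. ITCH (log2 fold change -1.36, SE 0.12) and TNIP3 (-1.36, SE 0.18) fell as well. COMMD1 (log2 fold change -3.18) spans 258.5 kb, ITCH 148.2 kb and TNIP3 96.1 kb. The median log2 fold change was -2.09 over tested genes of 153.1 to 2172.9 kb. Over those of 89.7 to 153.1 kb it was -0.93. The part of span in the rises and falls of these inhibitor genes was not tested.

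Of 40 NF-kB target genes 31 were tested, of which 19 rose, 10 fell and 2 did not pass, with a median log2 fold change of 0.47, against 35.3% higher and 34.1% lower over all tested genes, so the share that fell is near the background. IL6, the cytokine interleukin-6, rose from 4.32 ± 0.625 to 43.7 ± 2.61 CPM. The transcription factor gene IRF1 rose from 13.8 ± 0.822 to 56.5 ± 1.56 CPM. The adhesion molecule gene ICAM1 (log2 fold change 1.66, SE 0.07) and TNFAIP2 (1.503, SE 0.06) rose too. In the other direction, BCL2L1, which encodes the survival protein BCL-xL, fell from 359.1 ± 7.78 to 124.5 ± 3.86 CPM and the urokinase receptor gene PLAUR from 126.4 ± 5.41 to 43.9 ± 1.46 CPM. PTX3 and CSF1, the gene of a macrophage growth factor, both had a log2 fold change of -1.16. IL6 spans 6.1 kb, IRF1 9.2 kb, TNFAIP2 14.0 kb and ICAM1 15.8 kb. Ranges from 3.7 to 20.1 kb had medians of 0.39 to 0.43 over tested genes. PTX3 spans 6.8 kb, CSF1 20.8 kb and PLAUR 24.5 kb, the last 2 in a range with a median of 0.32. BCL2L1 spans 59.5 kb, in a range with a median of -0.35. The part of span in the target genes' values was not tested. With the fold threshold 9 target genes were higher and 5 lower, against 13.5% and 17.5% of all tested genes, and with library totals the latter were 3.

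**Figure D5:**
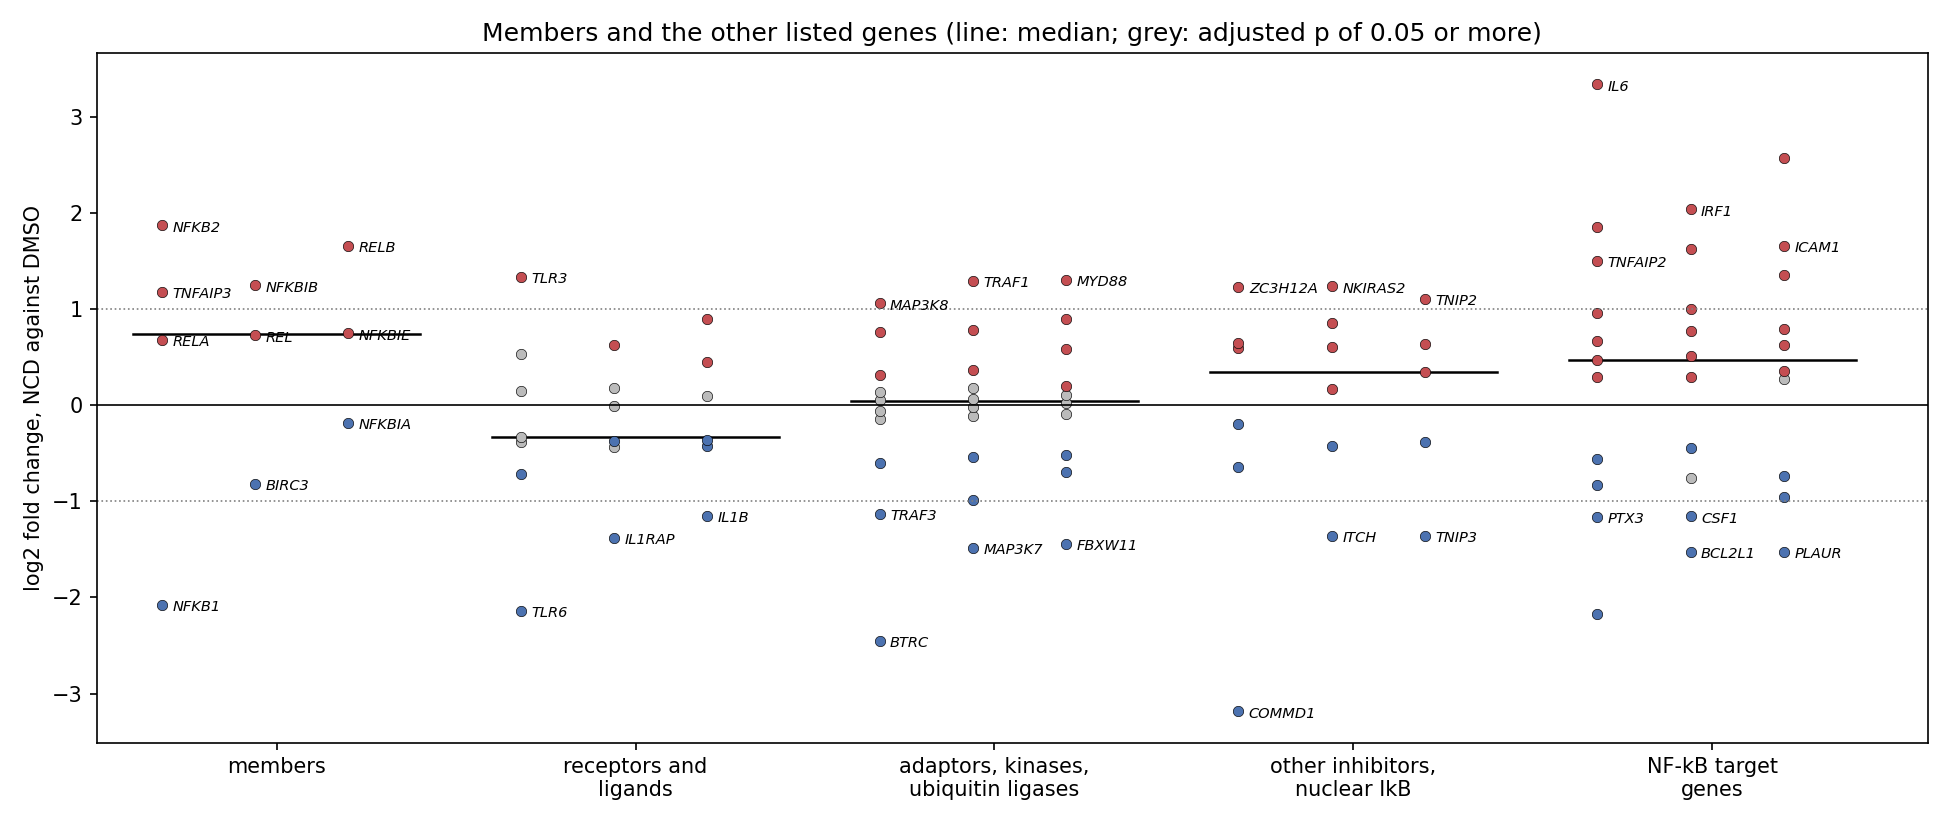
Log2 fold change (NCD against DMSO, edgeR, TMM scaling) of every tested gene of the 10 members and of the other lists, with red for higher and blue for lower at an adjusted p below 0.05, grey for genes that did not pass, black lines at the list medians and dotted lines at -1 and 1. Each list holds genes on both sides of 0, with medians of 0.74 for the members, -0.34 for receptors and ligands, 0.04 for adaptors and kinases, 0.35 for other inhibitors and 0.47 for target genes, and NFKBIA among the members takes the other sign with library totals.

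As a description of likeness over the 6 libraries, the listed genes whose log2 CPM followed NFKBIA most closely among 106 candidates were IL1A, CSF2 and IER3, with Pearson's r of 0.95, 0.93 and 0.91. For RELA they were ZC3H12A, CXCL2 and LTBR, each with r above 0.99. The 6 points share the difference between the groups of 3 libraries.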

How the data were processed

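RNA of MDA-MB-231 cells treated with NCD or DMSO was sequenced in 6 libraries. Per the paper's methods, the authors aligned the reads with HiSat2 and quantified expression with RSEM. The deposited values were taken to be expected counts per Ensembl gene without normalization, since they are not all whole and their totals differ between libraries. The submitters' processing notes name GRCh38 and hg38. The annotation release and strandedness are not given in the sources used here. In each library 25 lines of stray text without a gene were skipped. Coordinates, spans and exons came from GENCODE 29 (GRCh38), and upstream sequences from RefSeq (GRCh38.p14).

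Counts were rounded, genes filtered with filterByExpr, and groups compared with edgeR 4.0.16 (TMM, glmQLFit, glmQLFTest) in R 4.3.3, with Benjamini-Hochberg adjustment over all genes tested. Each SE was obtained from the fold change and the F statistic (|log2 fold change|/√F). Ratios were computed on counts plus 0.5 and tested with scipy 1.17.1. Alternatives used DESeq2 1.42.0 and limma 3.58.1 (voom), other scalings and filters, a replicate block and left-out libraries. The fits were tested on simulated data in which few genes changed, as many up as down. That cannot check the scaling of these data, where 69.3% of tested genes were called.

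Besides the members, BIRC2 was named for its ratio, and of each other list up to 4 genes per direction, those with the smallest p among genes past both thresholds with at least 1 CPM and no overlap between groups, and the 3 genes most like NFKBIA and RELA. MAP3K14, TNF and the overlapping genes were named after their values were seen. The members and lists were chosen with earlier results of these data known. Totals of 18223594 to 21629653 counts limit genes with a few counts, and counting error is only part of the spread. Matplotlib 3.10.9 drew the figures.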

Additional observations from a re-analysis of the deposited data

How the results depend on the processing

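NFKB1, NFKB2, RELA, RELB, NFKBIB, NFKBIE and TNFAIP3 kept their direction and their call under all alternatives run: DESeq2, limma-voom, 3 other scalings, both other filters, the replicate block and the left-out libraries. The log2 fold change of NFKBIA turned to 0.0098 with library totals, and its call was lost with ribosomal protein genes as the scale (-0.20), without a filter (-0.19) and with NCD replicate 1 as the only NCD library (-0.11). With that single library, which is assumed to vary like the DMSO group, REL was at 0.43 and not called, nor was it with ribosomal protein genes (0.71). BIRC3 lost its call with library totals (-0.62) and ribosomal protein genes (-0.82). Under both scalings the number of lower members was 1. With NCD replicate 1 alone, 2 members were lower past the fold threshold. With library totals, 7 receptors and ligands were higher, 2 of them past the fold threshold, and 3 target genes were lower past it. Library totals shift all genes by 0.20 on the log2 scale. Fewer libraries weaken a test by construction. The cause was not tested otherwise.

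Without each library in turn, log2 fold changes ranged from -2.17 to -1.99 for NFKB1, 1.81 to 1.89 for NFKB2, 0.51 to 0.85 for REL, -0.24 to -0.17 for NFKBIA and -1.19 to -0.66 for BIRC3. The number of members lower ranged from 2 to 3 and past the fold threshold from 1 to 2, and that of receptors and ligands higher past it from 1 to 2. The log2 ratio of REL to RELA ranged from -0.17 (without NCD replicate 3) to 0.21, and was -0.11 without DMSO replicate 1. That of BIRC3 to BIRC2 ranged from -0.0319 (without NCD replicate 3) to 0.28. The other 6 ratios kept their direction, also with an offset of 5 counts.

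Libraries with the same replicate number were not treated as pairs, since their deviations from the means of their groups had correlations of 0.216, -0.185 and 0.0226. With the replicate number as a block, the log2 fold change of NFKBIA was -0.19 and its adjusted p = 0.0536 in edgeR, and no other member lost its call. The smallest exact p of the paired ratio test is 0.25. Depth limits listed genes with a few counts, such as TNF.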
